A study of Homo sapiens with 19 samples.

Results

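Doxorubicin was removed from MYCN-low neuroblastoma cells after 72 h, and their transcripts were measured again 3 days later. The account below covers the 4 libraries of that step, out of 19 in the series: MYCN-low cells at the end of 72 h of doxorubicin (replicates B and C) and MYCN-low cells at day 3 after washout (replicates B and C). The libraries were picked by their labels, and the comparison was chosen with earlier results of these data known. The cells are SHEP TET21N, a neuroblastoma line with a MYCN transgene that doxycycline switches off. Doxycycline was in the culture medium of the MYCN-low cells and absent from that of the MYCN-high cells, and the labels do not say whether the medium given after washout held doxycycline. Both groups of the comparison had received 0.1 µg/ml doxorubicin for 72 h, and at day 3 the medium with the drug had been replaced by normal growth medium for 3 days. MYCN-low libraries of untreated cells, of day 8 (2 libraries each) and of day 14 (1 library, replicate B) and MYCN-high libraries of untreated cells, 72 h and day 3 (2 libraries each) serve as reference. All are 1 cell line, the series design calls the duplicates biological, and no library of cells kept in the drug beyond 72 h is among the samples.

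Doxorubicin traps topoisomerase II on DNA and leaves double-strand breaks. Breaks stabilise p53, which switches on CDKN1A (p21), an inhibitor of cyclin-dependent kinases, together with genes of DNA repair and apoptosis and with MDM2, the ligase that degrades p53. When p21 holds the kinases in check, the RB-family proteins and the DREAM complex keep the genes of DNA replication and mitosis silent. Promoters of many mitotic genes carry a CHR element, bound by DREAM and by the activating MuvB-MYB-FOXM1 complexes, next to CCAAT boxes, bound by NF-Y. TOP2A, the target of the drug, is one of these genes.

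The 4 libraries held between 19862769 and 23079383 read counts, and the 19 libraries between 16547663 and 27664604. The labelled state held: MYCN stood at 21.1 and 20.0 CPM (read counts scaled to a common library size) at 72 h and 21.7 and 29.3 at day 3, against 633 and 1416 CPM at 72 h and 604 and 765 CPM at day 3 in the MYCN-high libraries. Markers of mesenchymal neuroblastoma cells summed to between 1944 and 2359 CPM in the 4 libraries, markers of adrenergic cells to between 221 and 339.7 CPM, and epithelial markers to between 634 and 1089 CPM. A mean over 1 CPM in these libraries was reached by 22 of 26 mesenchymal, 11 of 21 adrenergic and 2 of 12 epithelial markers, so the epithelial sum rests on few members. Of 19 blood and immune markers, 6 had no count in all 4 libraries, and the list summed to 51.4 and 47.5 CPM at 72 h and to 23.9 and 32.8 CPM at day 3. Structured and mitochondrial ribosomal RNAs that remained after rRNA removal summed to 5197 (B) and 7759 (C) CPM at 72 h and 7122 and 8210 CPM at day 3. Spiked-in ERCC RNAs took 0.190% and 0.0921% of the counts at 72 h and 0.0826% and 0.252% at day 3, and the groups overlapped. Within MYCN-high cells the replicates at 72 h stood apart: the mitosis genes summed to 464 CPM in B and 1407 CPM in C.

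The first 3 drug-free days moved few genes past the test. Of 14793 genes tested with edgeR's quasi-likelihood test (Benjamini-Hochberg adjustment), 8 passed at 0.05, which is 0.0541% of all: 1 was higher at day 3 (0.00676%) and 7 were lower (0.0473%). At an unadjusted p under 0.05 there were 1072 genes (7.25%), 526 higher and 546 lower, and the Wald test of DESeq2 called 97 of the 13019 genes it adjusted (0.745%), the 8 included. The distance between the groups was close to that between replicates. Replicates B and C differed more than 2-fold in 1499 genes at 72 h and in 1290 genes at day 3, while 72 h and day 3 differed more than 2-fold in 1660 genes within B and in 1360 genes within C. For scale, untreated and 72 h cells differed that much in 4374 genes (B) and 2965 genes (C). The 8 calls rest on all 4 libraries: without replicate B or without replicate C at day 3, or without replicate B at 72 h, 0 genes passed, and without replicate C at 72 h only TP53I3 did. In those 3 fits with 0 calls, between 557 and 868 genes had an unadjusted p under 0.05. With libraries scaled by ERCC counts 0 genes passed, and 34 had an unadjusted p under 0.05. The ERCC share differed between the replicates of each group, and that scaling carries this difference into every gene. In bulk RNA, fewer cells expressing a gene and less RNA per cell cannot be told apart.

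Among the 7 genes that fell, TP53I3, a p53-induced quinone oxidoreductase, had the largest change. It stood at 90.7 and 63.8 CPM (B and C) at 72 h and at 25.6 and 25.1 CPM at day 3, after 19.3 and 15.4 CPM in untreated cells. The drop was -1.61 ± 0.22 on the log2 scale (± SE, n = 2 libraries per group, adjusted p = 0.0214 by edgeR), and day 3 was 0.55 above untreated (adjusted p = 0.0893). XPC, which recognises damage for nucleotide excision repair, went from 305 and 300.5 CPM to 134 and 160.3 CPM, a change of -1.04 ± 0.16 (adjusted p = 0.0297). XPC had come part of the way back: untreated cells held 53.8 and 68.9 CPM, and day 3 was still 1.26 higher than untreated (adjusted p = 4.8e-05).

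The other genes that fell include factors of replication, lipid synthesis and RNA processing. PCNA, the sliding clamp of DNA polymerases and itself a p53 target, went from 242 and 227 CPM to 96.5 and 102 CPM (-1.24 ± 0.19, adjusted p = 0.0297). Both day 3 libraries lay under the untreated 151 and 202 CPM, a difference of -0.83 (adjusted p = 0.00601). FADS1, a fatty acid desaturase, went from 125 and 132 CPM to 65.5 and 50.5 CPM (-1.15 ± 0.16, adjusted p = 0.0214), also under the untreated 106 and 124 CPM. EPB41L4B, a FERM-domain protein, went from 14.0 and 9.61 CPM to 3.85 and 4.35 CPM (-1.53 ± 0.24, adjusted p = 0.0297), with 9.29 and 10.8 CPM in untreated cells. HCFC1R1, a partner of the transcription cofactor HCFC1, went from 45.4 and 32.5 CPM to 11.2 and 16.4 CPM (-1.50 ± 0.25, adjusted p = 0.042). CPSF4, a subunit of the mRNA cleavage and polyadenylation complex, went from 37.0 and 31.6 CPM to 14.2 and 16.9 CPM (-1.14 ± 0.18, adjusted p = 0.0297). In all 7 the libraries of 72 h and day 3 did not overlap.

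ABHD2, a hydrolase of lipids, was the 1 gene that rose. It had stood at 146 and 135 CPM in untreated cells and at 81.6 and 86.6 CPM after 72 h of drug, and was at 168 and 139 CPM by day 3 (0.87 ± 0.14, adjusted p = 0.042). Day 3 differed from untreated by 0.13 (adjusted p = 0.547), and the day 8 libraries held 161 and 167 CPM.

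**Figure D1:**
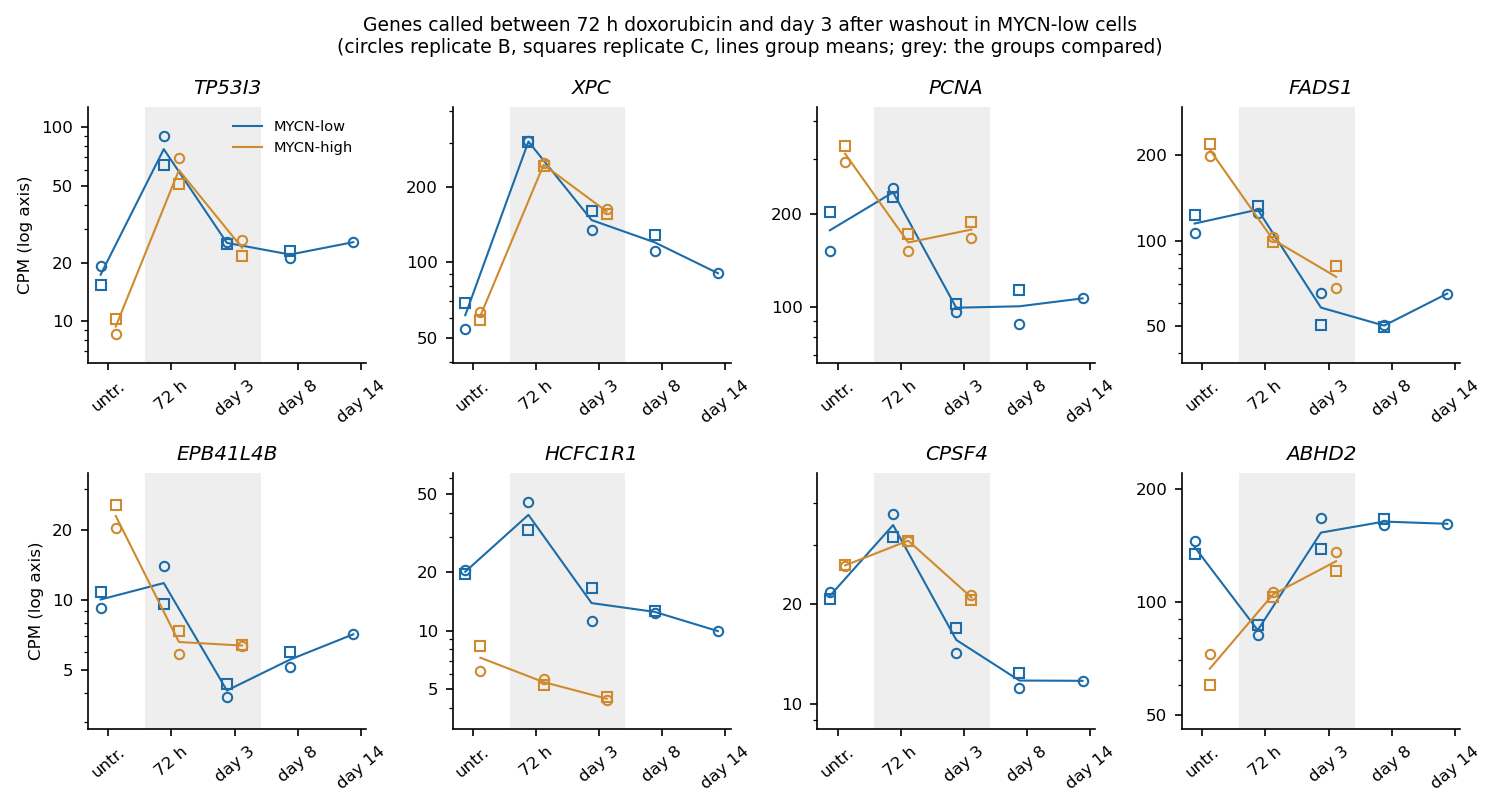
CPM (log axis) of the 8 genes past the test, by time. Circles are replicate B, squares replicate C, lines join group means, MYCN-low cells are blue and MYCN-high cells orange (shown to day 3), and grey shading covers the groups compared. TP53I3 is highest at 72 h, XPC at day 3 lies between its 72 h and untreated values, PCNA and FADS1 at day 3 lie under untreated, and ABHD2 is lowest at 72 h.

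Genes next in order of p did not pass and are given as values. On the higher side they include TMEM45A, a transmembrane protein, at 33.6 and 48.1 CPM at 72 h and 92.9 and 75.6 at day 3 (adjusted p = 0.0929), and PRKG1, the cGMP-dependent protein kinase, at 43.6 and 50.9 CPM at 72 h and 87.2 and 95.1 at day 3. The clock repressor BHLHE41 stood at 8.62 and 9.95 CPM at 72 h and 29.4 and 31.7 at day 3, and the collagen receptor subunit ITGA1 at 118 and 117 CPM at 72 h and 366 and 258 at day 3. SPAG5, a spindle protein, stood at 0.828 and 1.21 CPM at 72 h and 5.02 and 5.87 at day 3, and PLCB1, a phospholipase C, at 20.3 and 19.0 CPM at 72 h and 40.3 and 45.6 at day 3. Each of these 6 had day 3 libraries above both 72 h libraries. On the lower side FADS2, the desaturase encoded beside FADS1, stood at 9.15 and 6.04 CPM at 72 h and 2.44 and 2.28 at day 3, and the calcium-binding protein S100A6 at 1709 and 1607 CPM at 72 h and 749.9 and 852 at day 3. Thymidylate synthase, TYMS, stood at 29.6 and 30.7 CPM at 72 h and 16.6 and 13.7 at day 3, and the histone gene HIST2H2BE at 44.9 and 34.0 CPM at 72 h and 20.3 and 17.8 at day 3. In these 4 the libraries of the groups did not overlap either.

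Targets of p53 had the largest share of members lower at day 3 among the lists described here. Of 49 tested members 2 passed, both lower (TP53I3 and XPC), and in 33 both day 3 libraries lay under both 72 h libraries. In 0 of the 49 did they lie above. Across all tested genes 20.4% lay lower and 20.9% higher in that sense. The median log2 change of the list was -0.45, against 0.00 over all tested genes, and DESeq2 called 6 members, all lower (0.346% of all genes). At an unadjusted p under 0.05 there were 19 members, all lower, against 3.69% of all genes. Leaving out 1 of the 4 libraries gave medians from -0.54 to -0.40. With ERCC scaling the median was -0.46, and 3 of the 49 members lay lower in both day 3 libraries, where 3.08% of all genes lay lower and 2.29% higher under that scaling.

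Genes of the arrest and feedback arms lay lower without passing. CDKN1A had gone from 117 and 81.2 CPM in untreated cells to 1999.6 and 1529 CPM at 72 h, and stood at 1053 and 722 CPM at day 3 (-0.99 ± 0.33, adjusted p = 0.429). The 72 h and day 3 libraries of CDKN1A did not overlap, and day 3 was still 3.16 above untreated on the log2 scale (adjusted p = 1.03e-05). BTG2, an antiproliferative p53 target, stood at 107 and 96.1 CPM at 72 h and 68.1 and 48.0 at day 3. MDM2, the feedback ligase, stood at 1726 and 1502 CPM at 72 h and 1061 and 867 at day 3 (adjusted p = 0.561), and the phosphatase PPM1D, which dampens the damage response, at 139 and 143 CPM at 72 h and 103 and 104 at day 3.

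Members acting in repair, metabolism and death had the same order of libraries in part. The translesion polymerase POLH stood at 153 and 157 CPM at 72 h and 108 and 92.2 at day 3, and the damage sensor DDB2 at 57.7 and 56.5 CPM at 72 h and 31.0 and 38.0 at day 3. RRM2B, the p53-controlled ribonucleotide reductase subunit, stood at 486 and 462 CPM at 72 h and 337 and 284 at day 3. FDXR, the mitochondrial ferredoxin reductase, stood at 203 and 142 CPM at 72 h and 80.2 and 96.1 at day 3 (adjusted p = 0.232), and C12orf5 (TIGAR), a phosphatase of fructose bisphosphate, at 176 and 161 CPM at 72 h and 106 and 98.1 at day 3. Of the death genes, BBC3 (PUMA) stood at 35.8 and 28.98 CPM at 72 h and 20.1 and 21.3 at day 3 and the receptor TNFRSF10B at 266 and 223 CPM at 72 h and 179 and 135 at day 3. The death receptor FAS, at 52.9 and 43.8 CPM at 72 h and 49.8 and 43.8 at day 3, overlapped between the groups, as did PMAIP1 (NOXA), at 117 and 98.9 CPM at 72 h and 122 and 96.1 at day 3. GDF15, a secreted stress factor and p53 target, stood at 257 and 206 CPM at 72 h and 143 and 85.9 at day 3, while CSF1, a macrophage growth factor, stood at 398 and 298 CPM at 72 h and 504 and 368 at day 3 with overlapping groups.

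**Figure D2:**
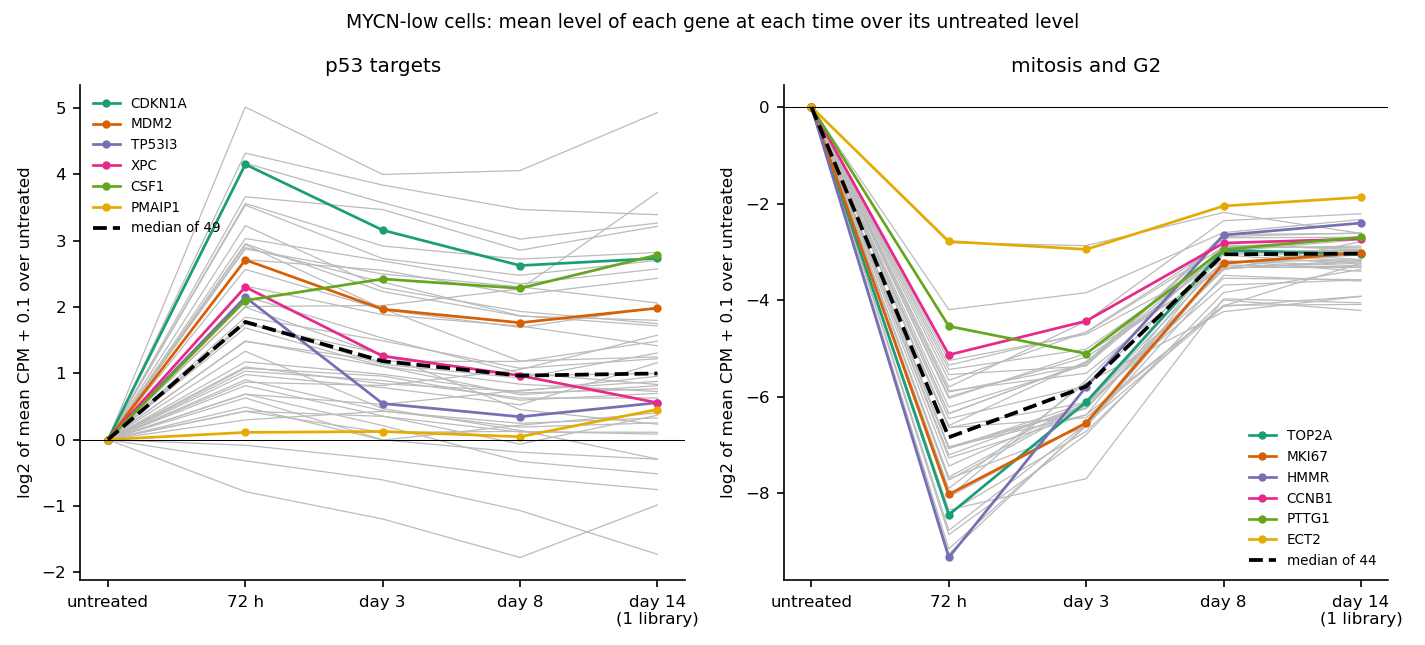
Mean CPM of each member relative to untreated MYCN-low cells (log2, pseudocount 0.1) for the p53 targets and the mitosis genes over the MYCN-low time course, with named genes in colour and the list's median dashed. Most p53 targets lie lower at day 3 than at 72 h, and mitosis genes lie far under untreated at 72 h, slightly higher at day 3 and higher again at day 8.

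The proximal promoters of 4 genes are shown, since mitosis genes had the largest share of members higher at day 3 among the lists described here, and they share promoter elements. HMMR, TOP2A and KIF20A stand for mitosis genes with a low 72 h level, and PCNA for a gene called lower. Each run is the 250 bases before the annotated start of transcription, 5′ to 3′ on the gene's strand, from RefSeq on GRCh38.p14. Capitals mark CCAAT boxes (CCAAT, or ATTGG on the other strand) and CHR letters (TTTGAA, or TTCAAA on the other strand). The windows are chr5:163460382-163460631 (plus strand) for HMMR, chr17:40417897-40418146 (minus strand) for TOP2A, chr5:138178862-138179111 (plus strand) for KIF20A and chr20:5126623-5126872 (minus strand) for PCNA, which has 2 windows in the table, the first listed being shown.
HMMR: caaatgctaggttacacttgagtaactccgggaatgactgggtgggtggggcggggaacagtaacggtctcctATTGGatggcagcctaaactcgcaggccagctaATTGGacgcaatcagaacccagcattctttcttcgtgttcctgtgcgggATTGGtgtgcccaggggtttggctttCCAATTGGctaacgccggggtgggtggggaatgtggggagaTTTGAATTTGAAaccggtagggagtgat
TOP2A: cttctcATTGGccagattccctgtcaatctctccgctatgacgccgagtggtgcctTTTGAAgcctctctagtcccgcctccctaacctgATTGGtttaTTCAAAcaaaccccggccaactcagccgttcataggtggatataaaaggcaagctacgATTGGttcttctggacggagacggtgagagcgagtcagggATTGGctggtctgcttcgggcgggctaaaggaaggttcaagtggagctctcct
KIF20A: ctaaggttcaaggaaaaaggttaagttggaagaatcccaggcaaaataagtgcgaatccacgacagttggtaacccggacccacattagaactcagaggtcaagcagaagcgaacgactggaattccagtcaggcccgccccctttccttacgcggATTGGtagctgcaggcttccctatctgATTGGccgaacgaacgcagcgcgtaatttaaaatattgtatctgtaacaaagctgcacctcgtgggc
PCNA: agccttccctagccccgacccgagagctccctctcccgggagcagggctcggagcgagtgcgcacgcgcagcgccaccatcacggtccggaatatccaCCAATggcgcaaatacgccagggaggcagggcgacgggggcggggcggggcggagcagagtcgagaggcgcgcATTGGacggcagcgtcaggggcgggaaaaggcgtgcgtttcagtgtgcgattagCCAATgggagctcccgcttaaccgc

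HMMR held 5 CCAAT and 2 adjoining CHR matches in this window, TOP2A 4 and 2, KIF20A 2 and 0, and PCNA 3 and 0. A pair of the HMMR matches, on opposite strands, overlaps by 2 bases. A window from 250 bases before to 50 after the start was found for 36 of the 44 mitosis genes, and only the 250 bases before the start were searched. Of the 36, 28 (77.8%) held CCAAT and 20 (55.6%) held TTTGAA on either strand. Of the first windows of all 27305 symbols in the RefSeq table, searched in the same way, 33.0% held CCAAT and 13.6% held TTTGAA. Among the 10036 tested genes with a window, the shares were 35.5% and 8.94%. Among mitosis genes the median match lay 76 bases before the start for CCAAT and 34 bases before it for TTTGAA. Promoters of DNA replication genes held CCAAT in 22 of 39 and TTTGAA in 1 of 39. A p53 half-site by letters was found in 5 of 38 windows of p53 targets (13.2%), against 5.53% of all windows and 4.58% of those of tested genes. Other lists came near it, with 7 of 63 cytosolic ribosomal proteins (11.1%), 4 of 39 DNA replication genes (10.3%) and 3 of 33 glycolysis genes (9.09%). Mitosis genes had 2 of 36 (5.56%) and integrins 0 of 13. A match is a string of letters and not a measured binding site.

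Mitosis and G2 genes lay higher at day 3 as a group, though 0 of 44 tested members passed. In 36 of the 44 both day 3 libraries exceeded both 72 h libraries, against 20.9% of all tested genes, and in 1 both lay lower. The median log2 change was 1.03, and the summed level of the list was 165 and 199.6 CPM at 72 h and 268 and 313 CPM at day 3. Untreated cells held 10249.9 and 12409.6 CPM. At an unadjusted p under 0.05 there were 18 members, all higher, against 3.56% of all genes. DESeq2 called 5 of the 44, all higher, against 0.399%. Leaving out 1 of the 4 libraries gave medians from 0.85 to 1.32. With ERCC scaling the median was 0.87, and 11 of the 44 lay higher in both day 3 libraries, against 2.29% of all genes under that scaling.

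Of the single members, TOP2A was among those with the smallest p. Its level was 1022 and 1319.8 CPM in untreated cells, 2.63 and 3.86 CPM at 72 h and 15.0 and 18.6 CPM at day 3, a change of 2.37 ± 0.52 that did not pass (adjusted p = 0.145). Both day 3 libraries lay several-fold above both 72 h libraries and far under the untreated ones. HMMR, a spindle and hyaluronan-binding protein, stood at 0.0487 and 0.386 CPM at 72 h and 3.17 and 4.00 at day 3 (4.00 ± 0.83, adjusted p = 0.12). KIF20A, a kinesin of the late spindle, stood at 0.243 and 0.241 CPM at 72 h and 1.54 and 2.63 at day 3 (3.06 ± 0.76), and the kinetochore protein NUF2 at 0.0487 and 0.435 CPM at 72 h and 1.67 and 1.77 at day 3 (2.80 ± 0.60). All 3 lay under 1 CPM at 72 h, where a change of a few counts moves the fold.

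Other mitotic genes had smaller fitted differences. The kinetochore motor CENPE stood at 4.14 and 6.86 CPM at 72 h and 12.8 and 15.8 at day 3, and the proliferation antigen MKI67 at 2.58 and 3.33 CPM at 72 h and 8.87 and 7.99 at day 3 (1.51 ± 0.54). Cyclin B1, CCNB1, stood at 10.3 and 13.6 CPM at 72 h and 18.3 and 20.7 at day 3 (0.71 ± 0.28, adjusted p = 0.586). ECT2, which drives cytokinesis, had 42.4 and 35.5 CPM at 72 h and 34.0 and 35.5 at day 3. The securin gene PTTG1 was the 1 member with both day 3 libraries lower, at 3.31 and 4.20 CPM at 72 h and 3.03 and 1.97 at day 3.

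Genes of the S phase gave a mixed picture. Of 47 DNA replication genes 1 passed, PCNA (lower), and the list's median was 0.17. Both day 3 libraries lay higher in 21 and lower in 6, against 20.9% and 20.4% of all tested genes. The list's summed level lay lower in both day 3 libraries, at 968 and 918 CPM at 72 h and 800 and 882 CPM at day 3. The fall of PCNA makes up much of that difference, and without PCNA the summed levels of the groups overlapped. RRM2, the S-phase ribonucleotide reductase subunit, stood at 0.195 and 0.435 CPM at 72 h and 3.08 and 4.40 at day 3 (3.54 ± 0.83), the checkpoint adaptor CLSPN at 0.633 and 1.74 CPM at 72 h and 5.25 and 7.44 at day 3, thymidine kinase TK1 at 0.389 and 0.966 CPM at 72 h and 3.03 and 2.83 at day 3, and the origin protein ORC6 at 2.43 and 2.70 CPM at 72 h and 5.48 and 6.07 at day 3. These 4 lay higher in both day 3 libraries. PCNA, TYMS and the DNA ligase LIG1, at 33.0 and 27.6 CPM at 72 h and 20.9 and 20.3 at day 3, lay lower in both. At an unadjusted p under 0.05 there were 8 higher and 3 lower members (3.56% and 3.69% of all genes). DESeq2 called 3 higher and 2 lower (0.399% and 0.346% of all genes).

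Homologous recombination and Fanconi genes had 0 of 25 past the test and a median of 0.34. By order of libraries 11 were higher and 4 lower, against 20.9% and 20.4% of all tested genes. By unadjusted p under 0.05 there were 6 higher and 1 lower (3.56% and 3.69% of all genes), and by DESeq2 0. BRCA1, a scaffold of homologous recombination, stood at 8.76 and 8.79 CPM at 72 h and 12.2 and 14.5 at day 3. POLQ, the polymerase of theta-mediated end joining, stood at 0.438 and 0.966 CPM at 72 h and 2.08 and 2.38 at day 3, and the Fanconi ubiquitin-conjugating enzyme UBE2T at 4.43 and 2.85 CPM at 72 h and 5.75 and 7.94 at day 3. All 3 lay higher in both day 3 libraries.

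Replication-dependent histone genes split evenly by order of libraries, 13 higher and 13 lower (20.9% and 20.4% of all tested genes), with 0 of 50 past the test. Their median was -0.01. The list's summed level lay lower in both day 3 libraries, at 622 and 544 CPM at 72 h and 464 and 410 CPM at day 3. By unadjusted p under 0.05 there were 3 higher and 10 lower (3.56% and 3.69% of all genes). DESeq2 called 3, all lower (0.346% of all genes). HIST1H2BK stood at 73.8 and 70.6 CPM at 72 h and 41.7 and 41.5 at day 3 and HIST1H2BD at 77.0 and 79.7 CPM at 72 h and 42.5 and 46.4 at day 3, both lower in each day 3 library, as was HIST2H2BE. HIST1H1E, a linker histone, was higher, at 14.2 and 11.1 CPM at 72 h and 22.9 and 19.3 at day 3. Near-identical histone copies can share reads, so single members are uncertain.

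Glycolysis and hypoxia genes had 0 of 37 past the test, but 21 lay higher in both day 3 libraries and 1 lay lower. Over all tested genes 20.9% lay higher and 20.4% lower. The list's median was 0.29, and DESeq2 called 5 members, all higher, against 0.399% of all genes. At an unadjusted p under 0.05 there were 11, all higher, against 3.56% of all genes. ENO2, an enolase, stood at 12.5 and 12.6 CPM at 72 h and 30.4 and 22.4 at day 3 (adjusted p = 0.123), and hexokinase HK2 at 13.2 and 10.4 CPM at 72 h and 36.8 and 16.9 at day 3. GPI, glucose phosphate isomerase, stood at 66.1 and 78.2 CPM at 72 h and 136 and 112 at day 3. PDK1, the kinase that shuts pyruvate dehydrogenase, had 40.5 and 43.9 CPM at 72 h and 73.6 and 61.7 at day 3. ANGPTL4, a secreted inhibitor of lipoprotein lipase, stood at 6.52 and 4.25 CPM at 72 h and 33.8 and 12.3 at day 3. In ANGPTL4 and HK2 the 2 day 3 replicates differed more than 2-fold from each other. Without replicate B at day 3 the list's median was 0.17, and with ERCC scaling 1 of the 37 lay higher in both day 3 libraries, near the 2.29% of all genes under that scaling.

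Integrins also had more members higher than lower. Of 17 integrins 0 passed, 9 were higher in both day 3 libraries and 0 lower, against 20.9% and 20.4% of all tested genes. Their median was 0.37, or 0.18 without replicate B and 0.60 without replicate C at day 3. By unadjusted p under 0.05 there were 4, all higher (3.56% of all genes), and DESeq2 called 2, both higher (0.399% of all genes). ITGA4, a fibronectin and VCAM receptor subunit, stood at 381 and 399 CPM at 72 h and 929 and 628 at day 3 (adjusted p = 0.232), and ITGAV at 849.5 and 802 CPM at 72 h and 1341 and 1031 at day 3. ITGA1 had the smallest p of the list. Of 42 matrix and mesenchymal genes 12 were higher, not far from the share over all genes, and 4 lower. Their median of 0.24 was 0.0021 without replicate B at day 3. None passed edgeR's test, 2 in each direction had an unadjusted p under 0.05, and DESeq2 called 1, lower (0.346% of all genes). Their summed level was 38153 and 35661 CPM at 72 h and 53458 and 35272 CPM at day 3, so replicate B was above both 72 h libraries and replicate C was not. THBS1, thrombospondin, stood at 2824 and 3349 CPM at 72 h and 6689.5 and 3953 at day 3. Endoplasmic reticulum chaperones had 0 of 24 past either test, 2 with an unadjusted p under 0.05, 10 higher and 1 lower, with a median of 0.13 that ran from 0.05 to 0.25 without replicate B or C at day 3, and the co-chaperone DNAJC3 stood at 213 and 227 CPM at 72 h and 323 and 301 at day 3.

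YAP and TGF-beta targets had 0 of 30 past the test, 2 higher and 12 lower (20.9% and 20.4% of all tested genes), median -0.13. That median rested on single libraries, at -0.35 without replicate B and 0.00 without replicate C at day 3. By unadjusted p under 0.05 there were 5, all lower (3.69% of all genes), and by DESeq2 0. F3, tissue factor, stood at 75.8 and 73.2 CPM at 72 h and 28.1 and 21.9 at day 3 (-1.58 ± 0.46), and ID2, an inhibitor of basic helix-loop-helix factors, stood at 115 and 105 CPM at 72 h and 50.1 and 57.7 at day 3. AXL, a receptor tyrosine kinase, had 566 and 480.1 CPM at 72 h and 349.7 and 348 at day 3.

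Ribosomal protein genes lay slightly lower. Of 77 cytosolic ribosomal proteins 0 passed, 39 were lower in both day 3 libraries and 2 higher (20.4% and 20.9% of all tested genes), and the median was -0.20. It was -0.09 without replicate B at day 3 and -0.10 without replicate C at 72 h. By unadjusted p under 0.05 there were 5, all lower (3.69% of all genes), and DESeq2 called 1, lower (0.346% of all genes). RPS19 stood at 1120.4 and 1083 CPM at 72 h and 663 and 655 at day 3 (-0.74 ± 0.20) and RPL12 at 1025 and 1103 CPM at 72 h and 702 and 773 at day 3. The list summed to 44265 and 48778 CPM at 72 h and to 36875 and 42135 CPM at day 3. With ERCC scaling the median was -0.28, and 0 of the 77 lay lower in both day 3 libraries, where 3.08% of all genes did. The ribosome biogenesis list had 9 higher and 17 lower of 56, median 0.00, and MYC targets 11 higher and 13 lower of 49, median 0.03. The 11 of 49 is near the share over all genes.

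Lipid synthesis had 1 of 35 genes past the test, FADS1 (lower), and a median of -0.08. By order of libraries 8 were higher and 11 lower, against 20.9% and 20.4% of all tested genes. FADS2 lay lower too, and EBP, a sterol isomerase, stood at 17.9 and 17.9 CPM at 72 h and 10.3 and 13.1 at day 3. The G1 regulators had 0 of 26 past either test, 9 higher and 6 lower, with an unadjusted p under 0.05 in 4 and 2 (3.56% and 3.69% of all genes). CCND1, cyclin D1, stood at 255 and 242 CPM at 72 h and 387 and 348 at day 3, and its kinase partner CDK6 at 672 and 602 CPM at 72 h and 1589.6 and 841 at day 3. The 2 day 3 replicates of CDK6 were farther apart than replicate C was from 72 h.

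Medians of the inflammatory and stress lists depended on single libraries. NF-kappaB targets had 10 of 29 higher and 3 lower (median 0.23), secretory senescence factors 11 of 52 higher and 8 lower (median 0.24), and interferon-stimulated genes 6 of 41 higher and 12 lower (median -0.03). All tested genes had 20.9% higher and 20.4% lower, and the secretory count of 11 higher is near that share. With 1 library left out the NF-kappaB median ran from 0.11 (without replicate C at 72 h) to 0.63 (without replicate B at 72 h). The secretory median ran from 0.0028 (without replicate B at day 3) to 0.29 (without replicate B at 72 h), and the interferon median from -0.15 to 0.07. None of their members passed edgeR's test, and between 2 and 5 a list had an unadjusted p under 0.05 (7.25% of all genes). DESeq2 called 1 secretory factor (0.745% of all genes). IL8, a chemokine of the senescent secretome, stood at 3.46 and 5.36 CPM at 72 h and 15.5 and 7.69 at day 3, and its day 14 library held 1283 CPM. Genes of the integrated stress response had 3 of 38 higher and 0 lower, 0 past either test and 1 with an unadjusted p under 0.05. Their summed level differed between replicates, at 5319 (B) and 3181 (C) CPM at 72 h and 5531 (B) and 3006 (C) CPM at day 3, and the list's median ran from -0.57 to 0.55 with 1 library left out.

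Genes of drug handling and nutrient sensing were followed as well. ABCB1, the efflux pump that exports doxorubicin, stood at 21.3 and 30.9 CPM at 72 h and 33.4 and 50.8 at day 3 (0.69 ± 0.34, adjusted p = 0.691). The libraries of the groups did not overlap, and replicate C lay above replicate B at both times. TXNIP, the glucose-responsive arrestin, stood at 765 and 918 CPM at 72 h and 952 and 825 at day 3, with overlapping groups. Of 21 efflux and anthracycline reduction genes, 1 was higher and 3 were lower by order of libraries, and of 15 clock output genes 6 were higher and 1 lower, 0 of either list past edgeR's test. Over all tested genes 20.9% were higher and 20.4% lower by that order. By unadjusted p under 0.05 the first list had 2 genes, both lower (3.69% of all genes), and the second 3, all higher (3.56%). DESeq2 called 0 and 1, the latter higher (0.399% of all genes).

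**Figure D3:**
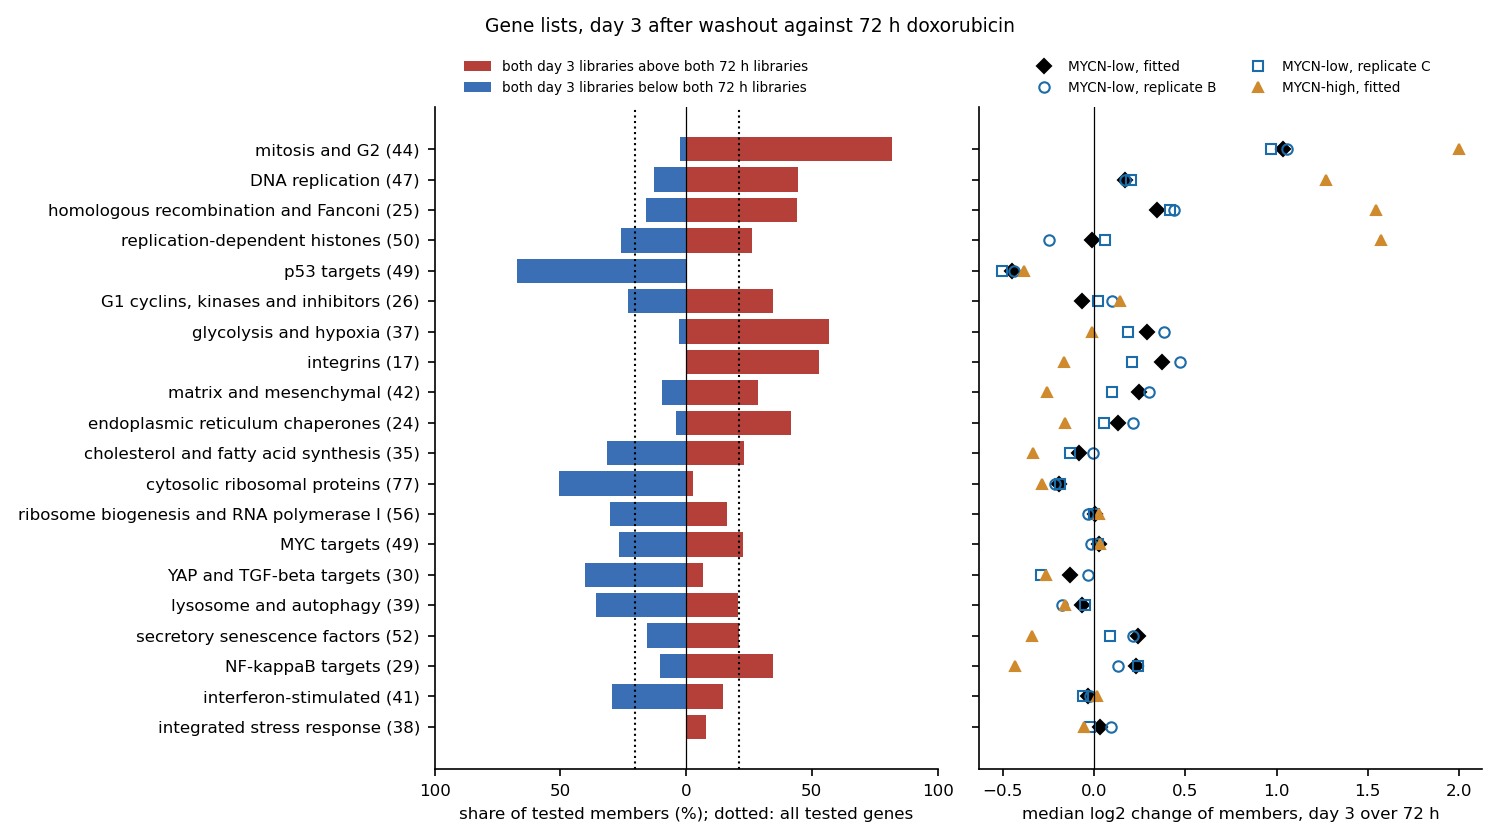
Left, the share of each list's tested genes with both day 3 libraries above (or below) both 72 h libraries, dotted lines marking the share over all tested genes, 20.9% higher and 20.4% lower. Right, the median log2 change of each list in MYCN-low cells as fitted (diamonds) and in replicates B and C (open symbols), and in MYCN-high cells (triangles). Under TMM scaling the lists that lean higher include mitosis, DNA replication, homologous recombination, glycolysis and integrins. Those that lean lower include p53 targets, ribosomal proteins and YAP and TGF-beta targets.

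Over the same 3 days 266 genes passed in MYCN-high cells in the fit of all libraries (1.8% of 14793), 253 higher (1.71%) and 13 lower (0.0879%). Of the 44 mitosis genes 30 passed there, all higher, with a median of 2.00 against 1.03 in MYCN-low cells. The DNA replication list had 21 of 47 past the test in MYCN-high cells, with a median of 1.27 against 0.17. The mitosis list had 44 of 44 higher by order of libraries, where 21.3% of all genes were. MYCN-high TOP2A stood at 38.5 and 183 CPM at 72 h and 469 and 459 CPM at day 3 (2.07 ± 0.47, adjusted p = 0.0315), beside 2.63 and 3.86 and 15.0 and 18.6 CPM in MYCN-low cells. The number of calls in MYCN-high cells depends on single libraries: it was 0 without replicate B at 72 h or without replicate C at day 3, 48 without replicate B at day 3 and 366 without replicate C at 72 h. With only the groups compared in each fit there were 4 calls in MYCN-high and 6 in MYCN-low cells. Of these, 1 and 2 were among the calls of the fit of all libraries. In these fits 1449 and 1437 genes had an unadjusted p under 0.05, so they do not rank the states. With the replicate letter as a block the counts were 363 and 9.

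The difference between the states was tested itself, as the MYCN-low change minus the MYCN-high change. With all libraries 0 of 14793 genes passed edgeR's test (0%), 832 had an unadjusted p under 0.05 (5.62%), 245 of them with the MYCN-low change above (1.66%) and 587 with it below (3.97%), and DESeq2 called 89, 80 of them below. With the replicate letter as a block 13 genes passed, all with the MYCN-low change below. Of those 587, the lists of S phase and mitosis held 25 of 47 DNA replication genes, 25 of 50 histone genes, 14 of 25 homologous recombination genes and 9 of 44 mitosis genes, and 0 members of these lists had the MYCN-low change above at that p. Without replicate C of MYCN-high 72 h, the library with the higher mitosis level, 159 genes passed, 156 with the MYCN-low change below, and without replicate B 0 passed. Leaving out the library with the higher level lowers the MYCN-high 72 h value of mitosis genes, so the direction of those calls gives no support, and the 1 library left in that group is assumed to vary like the others.

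For PCNA, MYCN-low cells went from 242 and 227 CPM to 96.5 and 102 CPM, while MYCN-high cells held 151 and 171 CPM at 72 h and 167 and 188 CPM at day 3. The difference of the changes was -1.38 ± 0.27 and did not pass (adjusted p = 0.144 by edgeR). TYMS had -1.56 ± 0.27 (adjusted p = 0.105) and HIST2H2BE -1.72 ± 0.28 (adjusted p = 0.105), which did not pass either. For LMNB1, lamin B1 of the nuclear lamina, MYCN-low cells held 8.81 and 10.7 CPM at 72 h and 6.43 and 10.2 at day 3 and MYCN-high cells 13.2 and 32.7 CPM at 72 h and 93.4 and 102 CPM at day 3, a difference of -2.32 ± 0.46 (adjusted p = 0.144).

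The median change of p53 targets was -0.45 in MYCN-low and -0.39 in MYCN-high cells, with 33 and 26 of 49 lower by order of libraries (19.3% of all genes were lower in MYCN-high cells). The fitted log2 value was lower in MYCN-low cells for 32 of the 49 and higher for 17. These medians rest on TMM scaling: ERCC scaling shifts the median of all genes by -0.023 in MYCN-low and by -0.746 in MYCN-high cells. The ERCC share of counts in MYCN-high cells was 0.0116% (B) and 0.191% (C) at 72 h and 0.0230% and 0.106% at day 3. The shift of -0.746 thus rests on spike-in shares that did not agree between replicates. TP53I3 went from 69.6 and 50.9 to 26.1 and 21.6 CPM in MYCN-high cells (-1.33 ± 0.22, adjusted p = 0.00888), and its difference between the states was -0.27 ± 0.31 (adjusted p = 1). PRKG1, which did not pass in MYCN-low cells, had 1.00 ± 0.18 in MYCN-high cells (adjusted p = 0.0108), beside 0.95 ± 0.18. The glycolysis list had a median of 0.29 in MYCN-low and -0.01 in MYCN-high cells, and the integrins 0.37 and -0.17. In the test of the difference, 8 of 37 glycolysis genes and 4 of 17 integrins had an unadjusted p under 0.05, each with the MYCN-low change above, against 1.66% of all genes, and 0 passed.

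**Figure D4:**
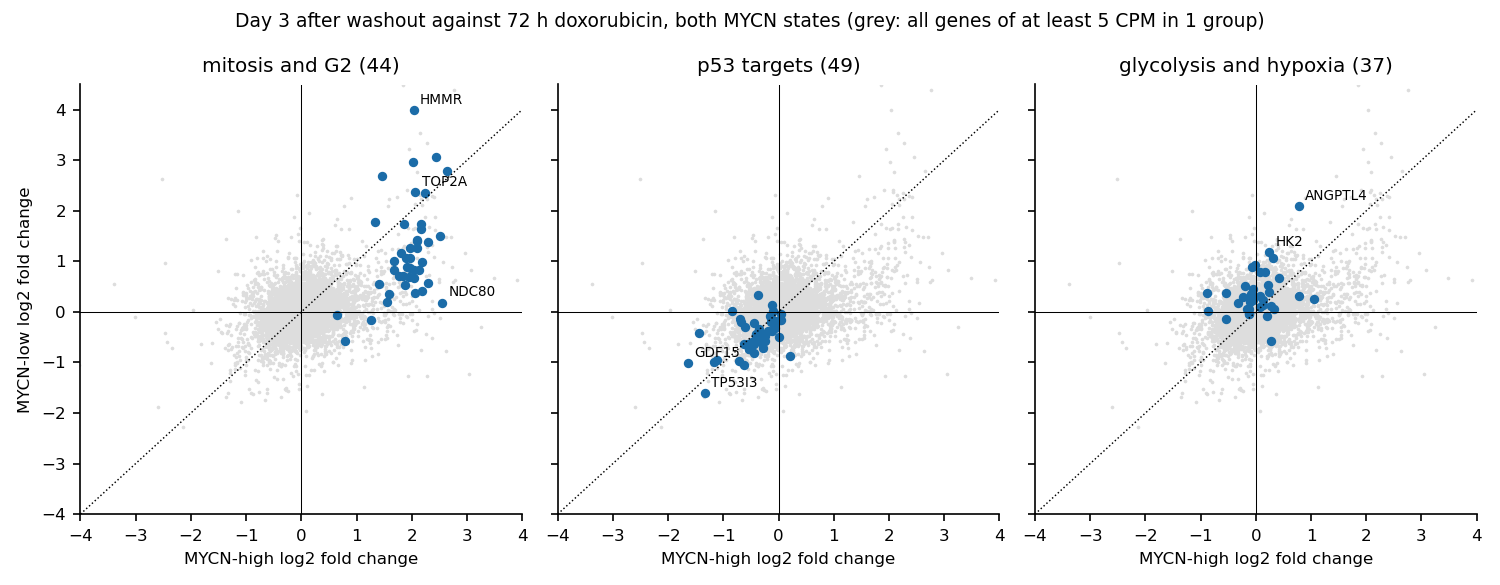
Log2 change from 72 h to day 3 in MYCN-high cells (x axis) against MYCN-low cells (y axis) for mitosis genes, p53 targets and glycolysis genes (blue), over all genes of at least 5 CPM in 1 group (grey), with a dotted line at equal change. Of the 44 mitosis genes 34 lie below the line (a smaller value in MYCN-low cells), 30 of 37 glycolysis genes lie above it, 32 of 49 p53 targets lie below it, and 2 mitosis genes and 1 p53 target fall outside the axes.

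After 3 days without drug many genes still differed from untreated cells. Day 3 differed from untreated MYCN-low cells in 3431 genes (23.2%), 1548 higher (10.5%) and 1883 lower (12.7%), and day 8 in 3681 genes (24.9%), 1516 higher (10.2%) and 2165 lower (14.6%), by edgeR's test. These comparisons share the day 3 or the untreated libraries with each other, so their values are given side by side. All 44 mitosis genes were lower than untreated at day 3 (median -5.94) and all 44 at day 8 (median -3.05). Of the 49 p53 targets 34 were still above untreated at day 3 (median 1.20) and 32 at day 8. For TOP2A the 2 day 8 libraries held 112 and 188 CPM and the day 14 library 141 CPM, after 15.0 and 18.6 CPM at day 3. XPC held 111 and 129 CPM at day 8, PCNA 87.8 and 113 CPM and FADS1 50.5 and 49.7 CPM, each under both of its 72 h libraries. With ERCC scaling 0 genes passed in either comparison with untreated cells, and 513 and 584 genes had an unadjusted p under 0.05.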

How the data were processed

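RNA was sequenced from 19 cultures of 1 cell line, after ERCC spike-in, rRNA removal with RiboGold and ScriptSeq library preparation, per the labels' protocols, while the molecule field says polyA RNA. The submitters' processing notes list STAR 2.4.0h1, HTSeq and hg19, and the annotation and strand setting are not given in the sources used here. Raw read counts by gene symbol were used as the authors deposited them (23459 lines, of which 92 are ERCC RNAs), and 0 columns fell outside the 19 libraries. Genes were kept by filterByExpr (14793 of 23367), scaled by TMM and tested with edgeR 4.0.16 in R 4.3.3 (quasi-likelihood, 1 coefficient per group over all 19 libraries, 9 residual degrees of freedom, Benjamini-Hochberg threshold 0.05). The biological coefficient of variation was 0.204. The procedure was tested on simulated data, drawn with the spread estimated in the same fit, so that test says nothing about the spread itself. CPM values use TMM-scaled library sizes, and SE is the absolute log2 change divided by the root of F. p-values measure only the spread between these libraries, and the single MYCN-low day 14 library borrows its spread from the rest. A group of 2 cannot show which library is off.

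Named genes are followed genes, those past the test with at least a log2 change of 1 and 5 CPM and no overlap of libraries, the 8 smallest p values of each direction, and up to 6 of each of 46 lists by smallest p, some given only in counts for length. ABHD2 passed under the size limit, and LMNB1, PTTG1 and ECT2, with several other list members, were named after their values were seen. The comparison and the lists were chosen with earlier results of these data known. Alternatives were DESeq2 1.42.0 size factors, its Wald test, no filter, a replicate block by letter, scaling by ERCC counts, fits of only the groups compared, and leaving out each library. Promoters come from RefSeq (GRCh38.p14, 35116 windows, 5191 symbols with more than 1) and were matched by symbol. Plots used matplotlib 3.10.9 in Python 3.11.15.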

Additional observations from a re-analysis of the deposited data

How the results depend on the processing

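For MYCN-low day 3 against 72 h, the 8 calls became 289 without a filter (182 higher, 107 lower, the 8 included), 97 with DESeq2's Wald test, 0 with ERCC scaling and 6 (2 of them among the 8) with only the groups compared, and from 0 to 1 with 1 library left out. DESeq2's size factors gave the same 8. For MYCN-high cells the 266 calls became 691 without a filter, 443 with DESeq2, 0 with ERCC scaling and 4 with only the groups compared, and from 0 to 366 with 1 library left out. For the difference of states the count of 0 became 284 without a filter (84 with the MYCN-low change above, 200 below), 89 with DESeq2 and 0 to 159 with 1 library left out. ERCC scaling shifted the median of all genes by -0.023 in MYCN-low cells, -0.746 in MYCN-high cells and 0.722 in their difference, and in 58 genes that difference had an unadjusted p under 0.05. These shifts rest on ERCC shares that differed between replicates, as at MYCN-high 72 h (0.0116% in B and 0.191% in C). Day 3 against untreated had 0 calls with ERCC scaling (median shift 0.479), 1387 with only the groups compared and 1912 to 4909 with 1 library left out. Day 8 against untreated had 0 (median shift 1.02), 1153 and 1948 to 5111. With the replicate letter as a block the 3 comparisons of the first days gave 9, 363 and 13 calls, the 9 including all 8 and the 13 all with the MYCN-low change below. The deviations of same-lettered libraries correlated at 0.194 between MYCN-low 72 h and day 3, from 0.102 to 0.315 over the pairs of replicated MYCN-low groups, at 0.217 between MYCN-high 72 h and day 3 and at -0.208 at the lowest over all pairs of groups. With 2 letters, and no label saying what they share, this does not settle whether they pair the cultures. Some single genes changed sign: FAS gave 0.0208 with ERCC scaling and from -0.162 to 0.102 with 1 library left out, PMAIP1 from -0.155 to 0.185, TXNIP from -0.0404 to 0.232 and LMNB1 from -0.59 to 0.0733. Of the other values for named genes, 756 kept direction and side of the threshold, 91 newly passed and 45 no longer did. Where a count moved, the cause was not tested. At these depths genes under 1 CPM rest on about 20 counts or fewer per library.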

Other observations

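Some mitotic genes had no counts in either 72 h library. KIF18B, a mitotic kinesin, had 0 counts at 72 h and 15 counts over both libraries at day 3, at least 4.93-fold higher by a floor of 3 counts over the group. TROAP, a spindle-associated protein, had 0 and 9 counts, at least 2.96-fold higher. The histone gene HIST1H3A had 3 and 27 counts, a ratio of 8.87 with a 95% interval of 2.73 to 45.7 that covers counting error only. HLF, a transcription factor of the PAR bZIP family, had 1 count at 72 h and 40 at day 3, 20 in each day 3 library, a ratio of 39.4 (interval 6.68 to 1595). HSPA1A, an inducible heat shock chaperone, had 0 counts at 72 h and 36 at day 3, all of them in replicate B. Some genes of few counts went the other way. EREG had 14 counts at 72 h and 2 at day 3, a ratio of 0.141 (interval 0.0155 to 0.613). CCND2 and ERBB3 each had 12 and 2 counts (0.164, interval 0.0178 to 0.738). MEOX2 had 9 and 0 counts, at least 3.05-fold lower by the same floor.

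Long and short genes differed in the direction of their libraries, a split looked at after values were seen, with gene spans taken from RefSeq for 96.1% of tested genes. Among 1751 genes under 10 kb with a mean of at least 5 CPM, 16.5% lay higher in both day 3 libraries and 29% lower. Among 1200 genes of at least 150 kb, 31.7% lay higher and 13.6% lower. Over all tested genes of any level, 20.9% lay higher and 20.4% lower. The median log2 change ran from -0.11 to 0.16 between these classes in replicate B and from -0.02 to 0.03 in replicate C. In MYCN-high cells the median fitted change ran from -0.12 to 0.04. The classes also differed in the share of G and C bases in the transcript, with medians of 54.1% and 44.0%. Of the genes that fell, HCFC1R1 spans 1667 bases and EPB41L4B 149086 bases, and ABHD2, which rose, spans 161358 bases. The part of gene length, or of the G and C share, in the results was not tested.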
